A study of Mus musculus with 4 samples.

Results

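The conjugating enzymes are the phase II enzymes of drug and hormone metabolism. The UDP-glucuronosyltransferases (Ugt) attach glucuronic acid to bilirubin, steroids, bile acids and drugs, the cytosolic sulfotransferases (Sult) transfer a sulfate group from the donor PAPS, and the cytosolic glutathione transferases (Gst) couple glutathione to reactive electrophiles. Hepatocytes are a main site of all these reactions, and the products leave the cell through export pumps into bile or blood. Genes were taken as members when their symbol began with Ugt or Sult and a digit, or with Gst, a class letter (a, k, m, o, p, t or z) and a digit. This gave 53 of 24138 rows of the deposited table, of which 13 were Ugt, 19 Sult and 21 Gst.

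The table holds RNA sequencing of 4 livers, each from a male mouse of strain C57BL/6J at an age of 18 weeks. All mice had been given the FAT-MASH diet, a model of fatty liver with inflammation (MASH is metabolic dysfunction-associated steatohepatitis), together with RvD1, resolvin D1, a lipid mediator of the resolution of inflammation. The 4 livers form 1 group, so that no contrast of diet or treatment was made and the values describe levels and their spread between animals. Levels are in FPKM, fragments per kilobase of transcript scaled to library depth, which allows genes to be set side by side. A gene was called expressed when its mean over the 4 livers was at least 1 FPKM, and its variation between mice was taken as the SD of log2(FPKM + 1).

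The libraries held about 20100000, 19300000, 19400000 and 17900000 fragments for livers 1 to 4, as estimated from the values themselves, and 1 fragment on a transcript of 1 kb was worth 0.0621 to 0.0697 FPKM. Acute phase transcripts were highest in liver 2, with a sum of 21618 FPKM for 16 genes against 9719 to 13068 FPKM elsewhere. In the same liver 10 genes known to be higher in males summed to 7876 FPKM, against 12416 to 15083 FPKM elsewhere. Mup20 alone gave 7078 FPKM of that sum, and 8 of the 10 genes were lowest in liver 2. Of 10 hepatocyte markers 9 were expressed, summing to 19725 to 24718 FPKM, but Alb was listed at 0 in every liver and Serpina1c in livers 3 and 4. An exact 0 in this table can therefore be a failed estimate, and members at 0 are described only as listed at 0. Of 6 kidney tubule markers 5 were at 0 in every liver, with sums of at most 0.09 FPKM. Of 8 acinar pancreas markers 6 were at 0, and the list summed to 4.13 to 6.00 FPKM, most of it from Cela1 at 4.00 to 5.19 FPKM.

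Transcripts of the 3 families made up 1.41 ± 0.134% (SD, n = 4) of all summed FPKM. The Gst genes contributed 1.01 ± 0.125%, the Ugt genes 0.317 ± 0.0186% and the Sult genes 0.0855 ± 0.0121%. In FPKM these were summed levels of 5378 ± 645 for Gst, 1693 ± 179 for Ugt and 457 ± 77.4 for Sult (each SD, n = 4). Expressed members numbered 36 of 53, a share to be read against the 43.7% of all rows that were expressed. By family these were 19 of 21 Gst, 10 of 13 Ugt and 7 of 19 Sult genes, where 1 Gst and 5 Sult genes were listed at 0 in all livers and may not have been measured. In the plot of levels by gene, each family was led by a few genes.

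**Figure D1:**
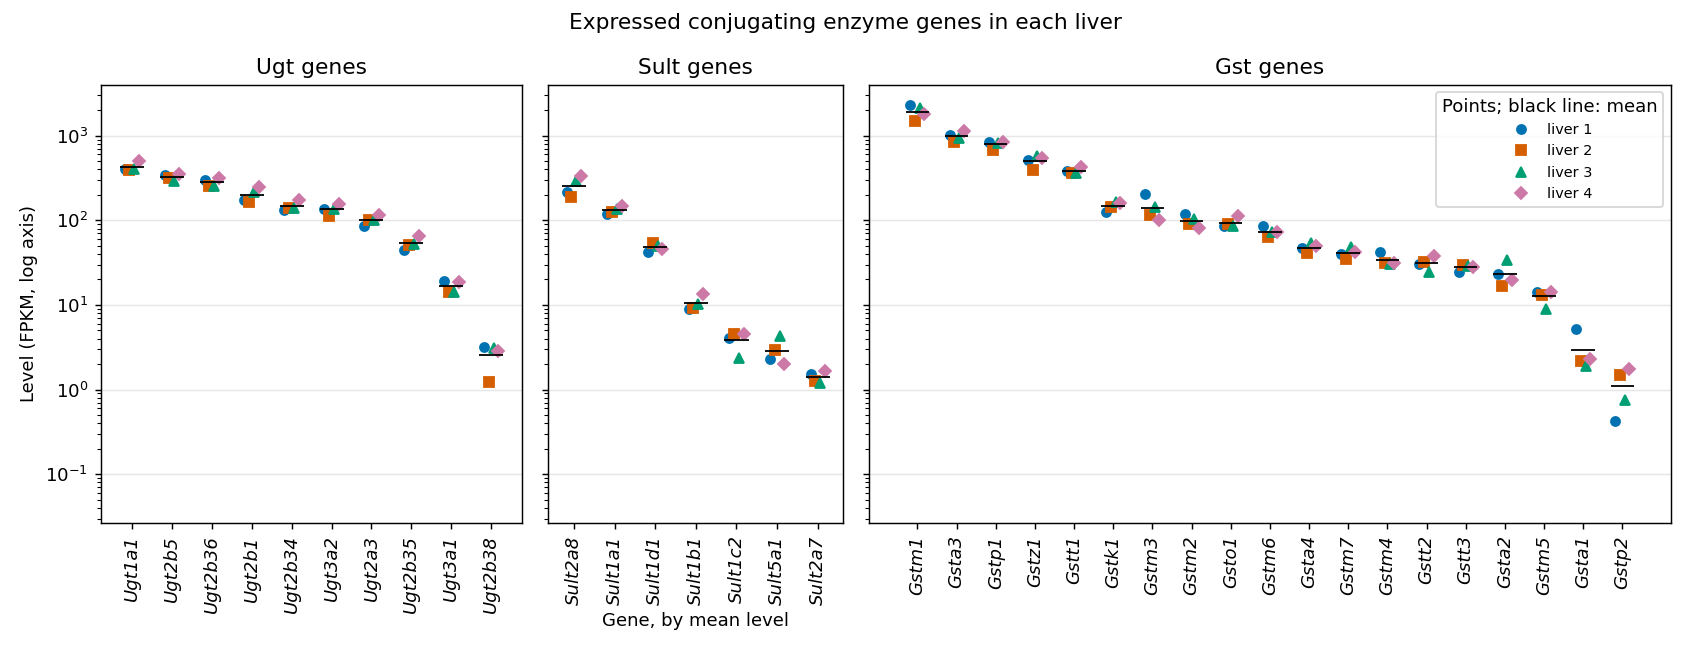
Level of each of the 36 expressed members in FPKM on a log axis, by family and in order of mean level, with 1 point per liver and a black line at the mean of the 4 livers. Gstm1 is the highest member, with a mean of 1928 FPKM, and the low end of the Gst panel holds Gsta1 and Gstp2, whose points lie far apart.

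The highest single row among the Ugt genes was that of the Ugt1a locus. The row named Ugt1a1 (XLOC_000271, chromosome 1, 88055411 to 88220002) spans 9 Ugt1a genes, each with a first exon and promoter of its own and a common set of 3′ exons. It also shares its span with Dnajb3. Its value is therefore that of the locus, and Ugt1a1, the bilirubin-conjugating enzyme, cannot be separated from its neighbours. Of the 50-base words of the Ugt1a1 transcript, 80.2% also occur in transcripts of other genes. RefSeq promoter windows of GRCm38.p6 were at hand for 8 of these genes. The 110 bases before the start are shown 5′ to 3′ for Ugt1a10 and Ugt1a9, as separate entry points into the single row that resemble each other, and capitals mark the 32 consecutive bases they have in common.
Ugt1a10 (chr1:88055301-88055410, + strand): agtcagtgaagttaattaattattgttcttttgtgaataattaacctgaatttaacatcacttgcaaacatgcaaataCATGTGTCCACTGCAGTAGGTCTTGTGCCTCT
Ugt1a9 (chr1:88070669-88070778, + strand): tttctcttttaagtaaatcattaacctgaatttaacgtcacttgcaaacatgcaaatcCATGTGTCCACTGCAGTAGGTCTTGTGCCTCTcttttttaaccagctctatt

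The Ugt1a1 row had 405, 397, 402 and 496 FPKM in livers 1 to 4, with a mean of 425 ± 47.7 FPKM (SD, n = 4). Livers 1 to 3 lay within 8 FPKM of one another and liver 4 was 1.23-fold above the next highest. The row supplied 25.1 ± 0.454% of all Ugt transcripts, a share that ranged little between animals.

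The Ugt2b enzymes, which conjugate steroids, bile acids and many drugs, summed to 1016 ± 107 FPKM (SD, n = 4), more than any other Ugt subfamily, and 6 of 7 were expressed. Ugt2b5 (chromosome 5, 87124947 to 87140340) had 347, 319, 290.2 and 356 FPKM in livers 1 to 4. Ugt2b36 had 302, 256, 252 and 319.8 FPKM, and Ugt2b1 had 176, 165, 214 and 250.01 FPKM. All of these were highest in liver 4, and Ugt2b1, with an SD of 0.27 on the log2 scale, was the only one of these with a spread above 0.25, which held for the values as deposited. Ugt2b34 had 134, 139.5, 140.2 and 175 FPKM, so that liver 4 stood 1.25-fold above the closest other liver. Ugt2b35 was lower, at 53.3 ± 8.10 FPKM (SD, n = 4).

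The weakly expressed Ugt2b38 (chromosome 5, 87409940 to 87424203) had 3.21, 1.22, 3.09 and 2.85 FPKM, about 109, 39.8, 102 and 86.4 fragments. Liver 2 was the low sample, and the highest value was 2.63-fold above it. Its coding sequence is 97.0% identical to that of Ugt2b5 over 1590 bases, yet Ugt2b5 was 93.9-fold to 261-fold higher in the same livers. Of the Ugt2b38 words, 37.4% are shared, and 34.1% occur in Ugt2b5, which had about 9350 to 11594 fragments per liver. The part of reads assigned to the wrong gene in the Ugt2b38 values was not tested. Ugt2b37 fell just short of the expression threshold, with 1.03, 0.174, 0.747 and 1.37 FPKM, and was again lowest in liver 2, where the value corresponds to about 5.66 fragments. Both are low where the male-biased transcripts above are low, and the part of these in the result was not tested.

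Ugt2a3, a bile acid glucuronosyltransferase, had 85.8, 101, 99.6 and 115 FPKM in livers 1 to 4. Ugt2a1, which is known from olfactory epithelium, was at 0.0242, 0.0536, 0.0234 and 0.0284 FPKM, about 1.08 to 2.45 fragments per liver, and 97.0% of its words are shared, mostly with Ugt2a2. The Ugt3a enzymes use sugar donors other than glucuronic acid. Ugt3a2 had 136, 114, 136 and 155 FPKM, whereas Ugt3a1 had 19.1, 14.4, 14.2 and 18.7 FPKM. The ratio between these neighbouring genes of chromosome 15 stayed between 7.14 and 9.60 in the 4 livers. Ugt8a, the ceramide galactosyltransferase of myelin, was at 0.258 to 0.368 FPKM.

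Sulfotransferases were dominated by Sult2a8 and Sult1a1, which together supplied 84.8% of Sult transcripts. Sult2a8 (XLOC_019454, chromosome 7, 14410686 to 14446587), a bile acid sulfotransferase of mouse liver, had 216, 189.6, 293 and 331 FPKM in livers 1 to 4. Livers 3 and 4 were high and livers 1 and 2 low, with a gap between the pairs and a 1.75-fold range, and its SD was 0.37 on the log2 scale. Sult1a1 (chromosome 7, 126672870 to 126676357), the phenol sulfotransferase, had 120.2, 124, 136 and 146 FPKM, a 1.22-fold range. Sult1d1, which sulfates catecholamines, was at 48.3 ± 5.06 FPKM and Sult1b1, which acts on thyroid hormones and phenols, at 10.5 ± 2.02 FPKM (each SD, n = 4).

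Among the lower Sult genes, Sult1c2 and Sult5a1 both departed in liver 3, in opposite directions, whereas Sult2a7 had an SD of 0.13 on the log2 scale. Sult1c2 had 4.07, 4.54, 2.36 and 4.55 FPKM in livers 1 to 4, with liver 3 below the rest. Sult5a1 had 2.28, 2.90, 4.27 and 2.02 FPKM, with liver 3 above the rest. Sult2a7 had 1.53, 1.27, 1.20 and 1.65 FPKM, and stood next to Sult2a8 on the chromosome at a level 141-fold to 244-fold lower.

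Of the remaining 12 Sult genes, 7 had mean values below 1 FPKM and 5 were listed at 0. Sult1e1, the oestrogen sulfotransferase, was listed at 0.615, 0, 0.392 and 0.723 FPKM, about 12.9, 0, 7.94 and 13.5 fragments. Sult2b1, a cholesterol sulfotransferase of skin, had 0.106, 0.602, 0.517 and 0.118 FPKM. Sult3a1, which is known as a female-specific liver gene of mice, was listed at 0.0612, 0.0693, 0 and 0 FPKM, about 1.18 and 1.27 fragments in livers 1 and 2. Sult4a1, Sult6b1 and Sult2a1 had at most 0.208 FPKM. Sult1c1, Sult2a3, Sult2a4, Sult2a5 and Sult2a6 were listed at 0 in all 4 livers. Sult2a2 was listed at 0, 0.695, 0 and 0 FPKM, so that liver 2 alone gave a value, of about 7.24 fragments.

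Sult2a1, also female-predominant in mouse liver, was listed at 0.0654, 0.142, 0.0711 and 0 FPKM. The genes Sult2a1 to Sult2a6 lie side by side with Sult2a8 and Sult2a7 within 869 kb of chromosome 7, and several are close copies. Over 855 coding bases the pairs among Sult2a1, Sult2a3, Sult2a4 and Sult2a5 ranged in identity from 93.5% (Sult2a3 and Sult2a5) to 94.9% (Sult2a1 and Sult2a5). None of the Sult2a8 words occurs in another gene.

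Among the classes of glutathione transferases, class mu had the highest summed level, at 2329 ± 433 FPKM (SD, n = 4), most of it from Gstm1. Gstm1 (XLOC_014043, chromosome 3, 108012250 to 108017973) had 2315, 1474, 2113 and 1809 FPKM in livers 1 to 4 and ranked 30th of all genes. Its mean was 1928 ± 367 FPKM (SD, n = 4), with liver 1 1.57-fold above liver 2. It supplied 35.7 ± 3.19% of Gst transcripts. Gstm3 (chromosome 3, 107963696 to 107969174) had 204, 117, 144 and 100.2 FPKM, a 2.04-fold range with liver 1 high and liver 4 low. Gstm2 had 118, 90.4, 103 and 81.1 FPKM and ranked the livers in the same order.

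All 7 Gstm genes of the cluster on chromosome 3 were expressed, and 6 of 7 had their highest value in liver 1, where 17.9% of all expressed genes did. Gstm4 had 42.2, 31.3, 30.3 and 31.1 FPKM, so that liver 1 was 1.35-fold above 3 livers that differed little. Gstm6 had 85.4, 63.9, 72.1 and 73.7 FPKM. Gstm5 (chromosome 3, 107877230 to 107898685), whose span also covers Eps8l3, had 14.4, 13.01, 8.86 and 14.2 FPKM, and its first place in liver 1 rests on a margin within 1 FPKM. Gstm7 was the exception, at 40.4, 35.2, 47.8 and 42.5 FPKM, with liver 3 highest. The count of 6 was the same with median-ratio scaling and with livers set to equal summed values. Relative to the gene means, the Gstm genes lay at a median of 0.28 in liver 1, against -0.01 for all expressed genes, and at -0.20 in liver 2, against -0.02. Some reads of the class cannot be assigned with certainty, since 28.8% of Gstm3 words and 23.1% of Gstm1 words occur in other genes or pseudogenes.

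Class alpha was led by Gsta3 (chromosome 1, 21240585 to 21265575), with 1015, 831, 940.3 and 1148 FPKM in livers 1 to 4. It lies apart from the Gsta4, Gsta1 and Gsta2 cluster of chromosome 9 and shares none of its words with another gene. Gsta4, which conjugates the lipid peroxidation product 4-hydroxynonenal, had 46.8, 41.1, 53.5 and 49.6 FPKM. Gsta2 had 23.2, 16.9, 34.02 and 19.9 FPKM, with liver 3 high. Gsta1 (chromosome 9, 78230669 to 78242683) had 5.26, 2.18, 1.88 and 2.28 FPKM, with liver 1 2.31-fold above the next. Gsta1 and Gsta2 thus peaked in different livers, and the ratio of Gsta2 to Gsta1 ranged from 4.41 in liver 1 to 18.1 in liver 3. Of the Gsta1 words, 89.7% are shared, and 82.9% occur in Gm3776, which had 1.38, 0.901, 1.12 and 0.160 FPKM. The division of reads among Gsta1, Gsta2 and Gm3776 depends on the authors' counting, and its part in these values was not tested.

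Class pi consisted of a very high and a very low gene. Gstp1 (chromosome 19, 4035411 to 4037912) had 839, 676, 827 and 853 FPKM in livers 1 to 4, with liver 2 below 3 livers that lay close together. Gstp2 (chromosome 19, 4040288 to 4042221), the adjacent copy, had 0.425, 1.49, 0.757 and 1.77 FPKM, about 5.11 to 19.0 fragments. Its mean of 1.11 FPKM was 0.985 without liver 2 and 0.891 without liver 4, below the threshold for an expressed gene. Gstp1 was thus 453-fold to 1977-fold higher. The genes differ at 12 of 630 coding positions, and 62.3% of Gstp1 words occur in Gstp2, so reads that tell them apart come from only a part of the transcript. The first 60 coding bases hold 6 of the differences, given in capitals.
Gstp1: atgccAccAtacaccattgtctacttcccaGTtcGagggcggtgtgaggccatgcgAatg
Gstp2: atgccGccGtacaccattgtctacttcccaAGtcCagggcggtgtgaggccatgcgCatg
The promoters are also alike, with 34 consecutive bases in common that include the AP-1-like motif TGAGTCA and a GC box, GGGCGG. Both motifs are in capitals below, and the gene with the far lower level has an additional GC box.
Gstp1 (chr19:4037913-4038022, - strand): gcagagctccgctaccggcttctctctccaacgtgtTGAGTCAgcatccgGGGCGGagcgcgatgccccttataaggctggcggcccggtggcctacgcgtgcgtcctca
Gstp2 (chr19:4042222-4042331, - strand): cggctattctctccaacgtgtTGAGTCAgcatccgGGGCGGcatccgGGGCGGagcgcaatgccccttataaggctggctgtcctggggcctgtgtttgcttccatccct
In the 250 bases before the start, TGANTCA was found in 9 of 46 members with a RefSeq window, against 7.82% of 27025 genes, and GGGCGG in 13 of 46, against 35.4%. The core of the antioxidant response element, TGACNNNGC, was in the promoters of Gsta3, Gstm5 and Gstm7 alone, 3 of 46 against 11.5% of all genes. The dioxin response core GCGTG was in 8 of 46, against 30.9%. All motifs were sought on both strands, and TGANTCA and TGACNNNGC can overlap. Matches are letters in a window and not binding sites.

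The other classes each had 1 leading gene. Gstz1, maleylacetoacetate isomerase of tyrosine breakdown, had 514, 394, 582 and 539.7 FPKM in livers 1 to 4, with liver 2 lowest. Its row (chromosome 12, 87106866 to 87164723) covers Pomt2 as well, whose own row had 3.49 to 5.22 FPKM. Gstt1, which acts on small halogenated compounds, had 381, 358, 366 and 428 FPKM and an SD of 0.12 on the log2 scale, which was 0.045 without liver 4 and 0.056 with equal sums. Gstt3 was at 27.8 ± 2.36 FPKM and Gstt2 at 31.3 ± 5.38 FPKM, while Gstt4, between Gstt1 and Gstt2, was listed at 0 in all livers. Gstk1, an enzyme of mitochondria and peroxisomes, was at 148 ± 17.2 FPKM. Gsto1, which reduces dehydroascorbate, was at 93.1 ± 12.7 FPKM (each SD, n = 4). Its neighbour Gsto2 was listed at 0.0662 FPKM in liver 1, about 1.53 fragments, and at 0 in the others.

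Neighbours within a cluster differed widely in level, as the plot along the chromosomes shows. The Ugt2 genes and Sult1b1, Sult1d1 and Sult1e1 form a run of 12 members within 702 kb of chromosome 5. Ugt2b37 lies between Ugt2b5 and Ugt2a3, at 0.831 FPKM against 328 and 100.3 FPKM, and Ugt2a1 separates Ugt2b38 from Sult1b1. In the Gstm cluster of 168 kb, Gstm1 lies between Gstm2, at 97.9 FPKM, and Gstm4, at 33.7 FPKM.

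**Figure D2:**
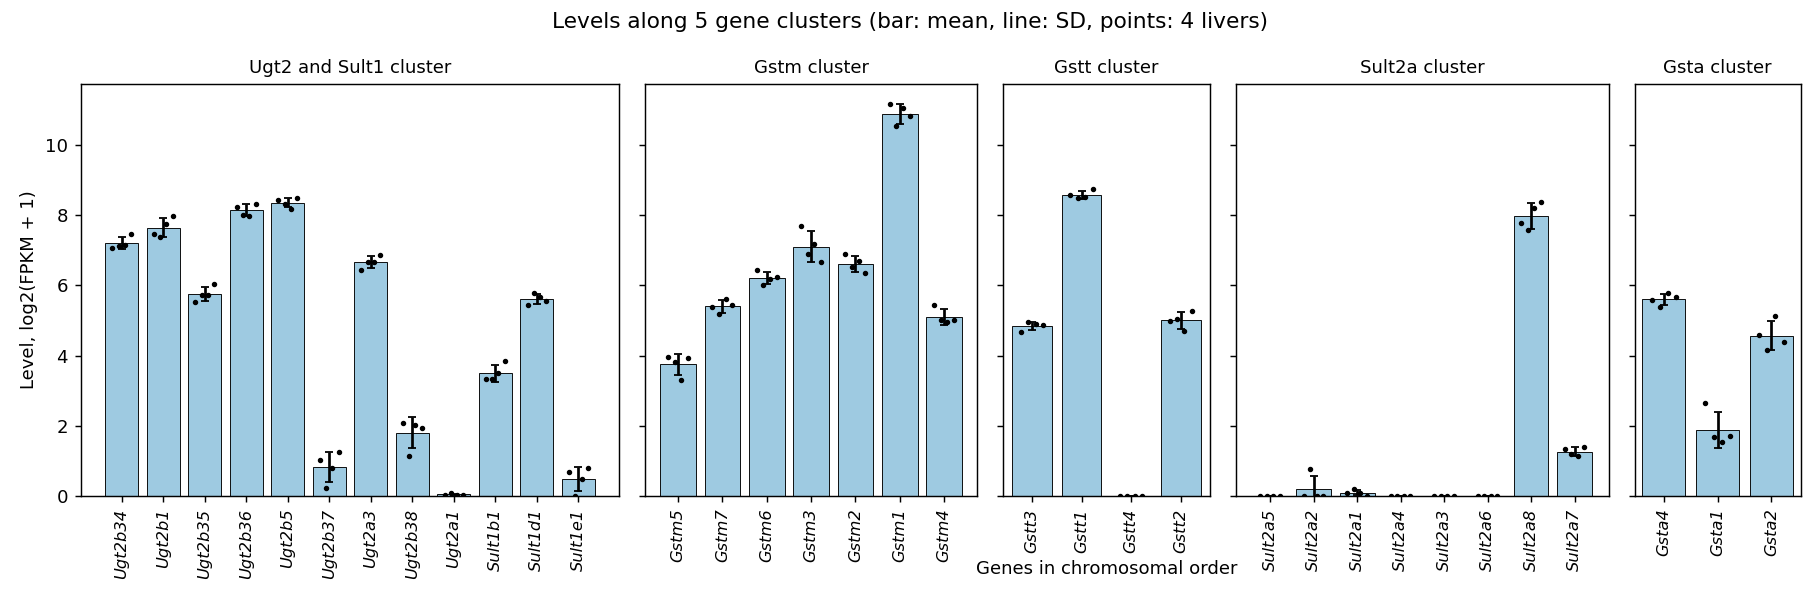
Level of members as log2(FPKM + 1) in chromosomal order along 5 clusters, where bars are means, lines the SD and points the 4 livers. Sult2a8 has the highest of the 4 values above 0 in its cluster of 8 genes, and Gstm1 exceeds its 6 neighbours.

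Sequence shared between genes limits how these values can be read. In 15 of 53 members at least 20% of the 50-base words of the longest coding transcript were found in another gene, and in 18 members 0% were. Of the 15, 10 were expressed and 5 were not. With words of 100 bases the number fell to 10. The plot of shared sequence against level shows both high and low members at the right.

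**Figure D3:**
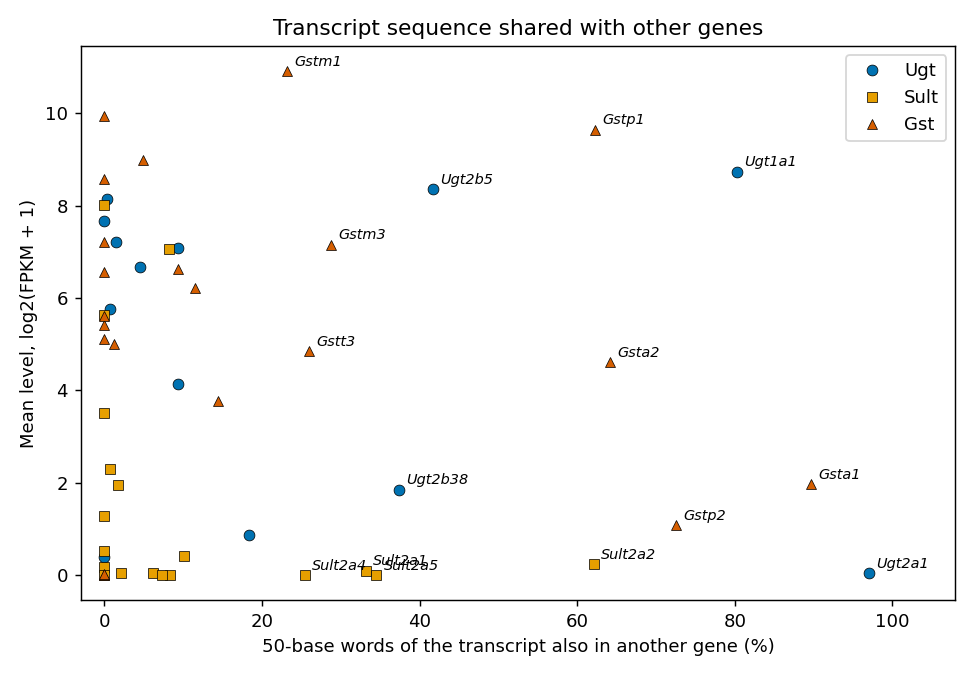
Mean level as log2(FPKM + 1) against the percentage of 50-base words of each member's longest coding transcript that also occur in another gene, with 1 point per gene. Ugt1a1 and Gstp1 are abundant with 80.2% and 62.3% shared, whereas Gstp2 and Gsta1 are low with 72.6% and 89.7%.

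The spread between animals had a median of 0.20 (log2) over the 36 expressed members, against 0.16 over all 10541 expressed genes. By family the medians were 0.18 for Ugt, 0.24 for Sult and 0.22 for Gst. An SD of at least 0.25 was found for 11 of 36 members, against 18.3% of all expressed genes. These were Gsta1 (0.51), Gstp2 (0.45), Gstm3 (0.44), Ugt2b38 (0.44), Gsta2 (0.42), Sult2a8 (0.37), Sult5a1 (0.36), Sult1c2 (0.34), Gstm5 (0.30), Gstm1 (0.28) and Ugt2b1 (0.27). With a minimum mean of 5 FPKM it was 6 of 30, close to the 16.9% of all genes at that level. Several of these spreads were smaller when 1 liver was left out. The SD was 0.098 for Gsta1 without liver 1 and 0.066 for Ugt2b38 without liver 2. Without liver 3 it was 0.075 for Sult1c2, 0.075 for Gstm5, 0.19 for Sult5a1 and 0.22 for Gsta2. For Gstm1 it was 0.18 without liver 2, and Gstm3 fell to 0.26 without liver 1. The SD of Ugt2b1 was 0.19 without liver 4, 0.24 with median-ratio scaling and 0.23 with equal sums. The lowest value for Sult2a8 when a liver was left out was 0.32, without liver 2. The highest liver exceeded the lowest by a median of 1.38-fold over members and of 1.34-fold over all expressed genes.

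**Figure D4:**
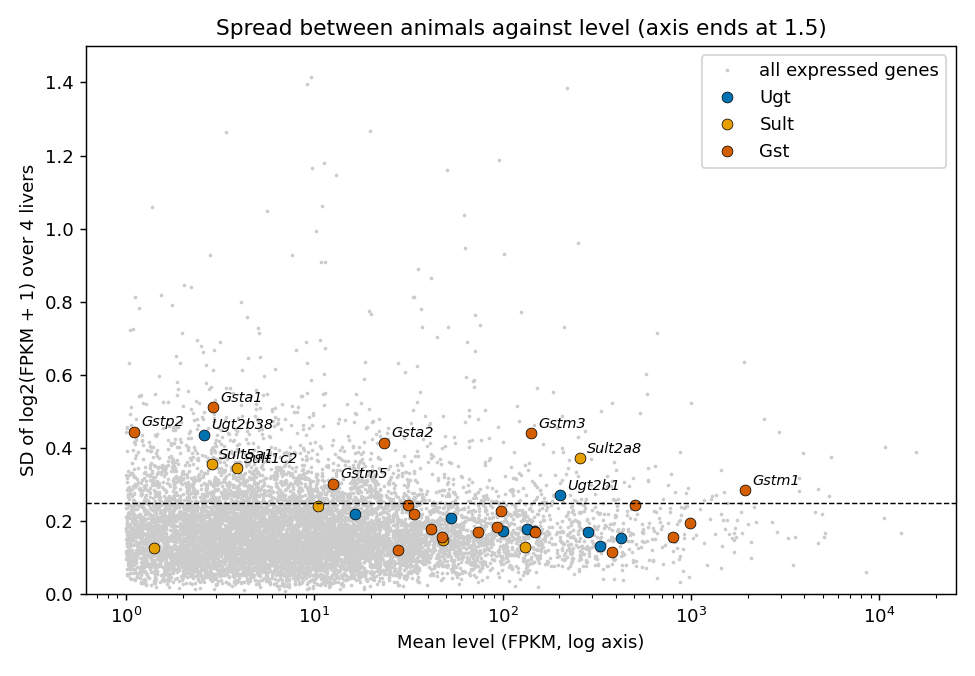
SD of log2(FPKM + 1) over the 4 livers against mean level in FPKM on a log axis, with all expressed genes in grey and members in colour, where the dashed line marks 0.25 and the vertical axis ends at 1.5. The 11 labelled members lie above the line, among them Gstm1, Gstm3, Sult2a8 and Ugt2b1 at levels above 100 FPKM.

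In 5 of 36 members 1 liver lay apart from the other 3, as judged by Dixon's ratio, the gap to the nearest liver divided by the range, at its 95% critical value. The share over all expressed genes was 5.64%. Liver 4 was high in Ugt1a1 and Ugt2b34, liver 1 was high in Gstm4 and Gsta1, and liver 2 was low in Gstp1. When each liver was set to the same summed value, the members were Ugt1a1 and Gsta1, which at 2 of 36 was close to the 5.63% of all expressed genes.

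Over the 36 expressed members the highest value was in liver 1 for 9, in liver 2 for 2, in liver 3 for 6 and in liver 4 for 19, where the shares of all expressed genes were 17.9%, 22%, 26.8% and 33.3%. Liver 2 was the lowest for 14 members and liver 3 for 10, against 29.9% and 31.4%. In livers 1 to 4, 18, 8, 17 and 28 members lay above their mean, where 47.2%, 45.1%, 47% and 60.8% of all expressed genes did. The highest value was in liver 4 for 8 of 10 expressed Ugt genes, where it was for 33.3% of all expressed genes and for 53% of the 1407 genes that averaged 50 FPKM or more. Liver 4 also had the largest summed FPKM of all genes, and with equal sums the count was 6 of 10, against 15.6% of all expressed genes. All 10 Ugt genes lay above their mean in liver 4 as deposited and under both scalings. Of the 10541 expressed genes 60.8% did so as deposited, 5269 with median-ratio scaling and 4012 with equal sums. The Ugt median was 0.20 as deposited, against 0.04 for all expressed genes and 0.12 for those at 50 FPKM or more. It was 0.15 with median-ratio scaling and 0.11 with equal sums, where all expressed genes lay at -0.04. Marker lists that were also high in liver 4 included that of Kupffer cells and macrophages, with 6 of 8 expressed genes highest there and a median of 0.22. Another was that of hepatocytes, with 5 of 9 and a median of 0.12. Targets of the xenobiotic receptors CAR and PXR lay at a median of 0.19, with 3 of 7 highest there. Export pumps lay at 0.16, with 2 of 4. The male-biased genes lay at a median of 0.23 there, and the 2 expressed adipose markers at 0.51, of which Cfd was highest there and Fabp4 in liver 2, while Lep, Plin1 and Retn were listed at 0. The part of these in the Ugt values was not tested. For Gst genes, liver 2 was lowest in 9 of 19, against 29.9% of all expressed genes, and the median deviation there was -0.20, against -0.02. The count was the same under both scalings, but the deviation was -0.10 without liver 1 and -0.12 with a pseudocount of 5. Sult genes lay at a median of -0.17 in liver 1, or -0.07 without liver 4. In liver 4 they lay at 0.16, which became 0.08 with equal sums and 0.10 without liver 3. It rose to 0.25 with a minimum mean of 5 FPKM and to 0.22 with a pseudocount of 0.1. The number of Sult genes highest there fell from 5 of 7 to 2 of 7 with equal sums. The acute phase sum given above was also highest in liver 2, and the male-biased sum lowest. Of 10 pericentral hepatocyte markers 7 were lowest in liver 2, with a median deviation of -0.36 there. Their median was 0.29 in liver 1, where the Gstm genes were high, and 0.24 in liver 3. The highest value was in liver 1 for 4 of them, in liver 3 for 5 and in liver 4 for 1. Their sum was highest in liver 4, at 8267 FPKM against 5774 FPKM in liver 1. Of 5 erythroid genes 2 were found, in 3 rows that summed to 1076 FPKM in liver 1 and to 427 to 829 FPKM in the others. Both rows of Hba-a1 were highest in liver 1. Alas2 was highest in liver 3, at 64.0 FPKM against 55.8 FPKM in liver 1. Liver 2 was the highest for 8 of 10 stellate cell and fibroblast markers, which summed to 350.1 FPKM there and 230.1 to 274 FPKM elsewhere. It was also the highest for 7 of 10 sinusoidal endothelial markers, at 95.8 FPKM against 71.3 to 87.3 FPKM. Of these 10, 8 were lowest in liver 1, as were 20.7% of all expressed genes. Of 11 genes known to be higher in females 3 were expressed, and 2 of these were highest in liver 2, with a median of 0.44. The part of all these markers in the Gst values was not tested.

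**Figure D5:**
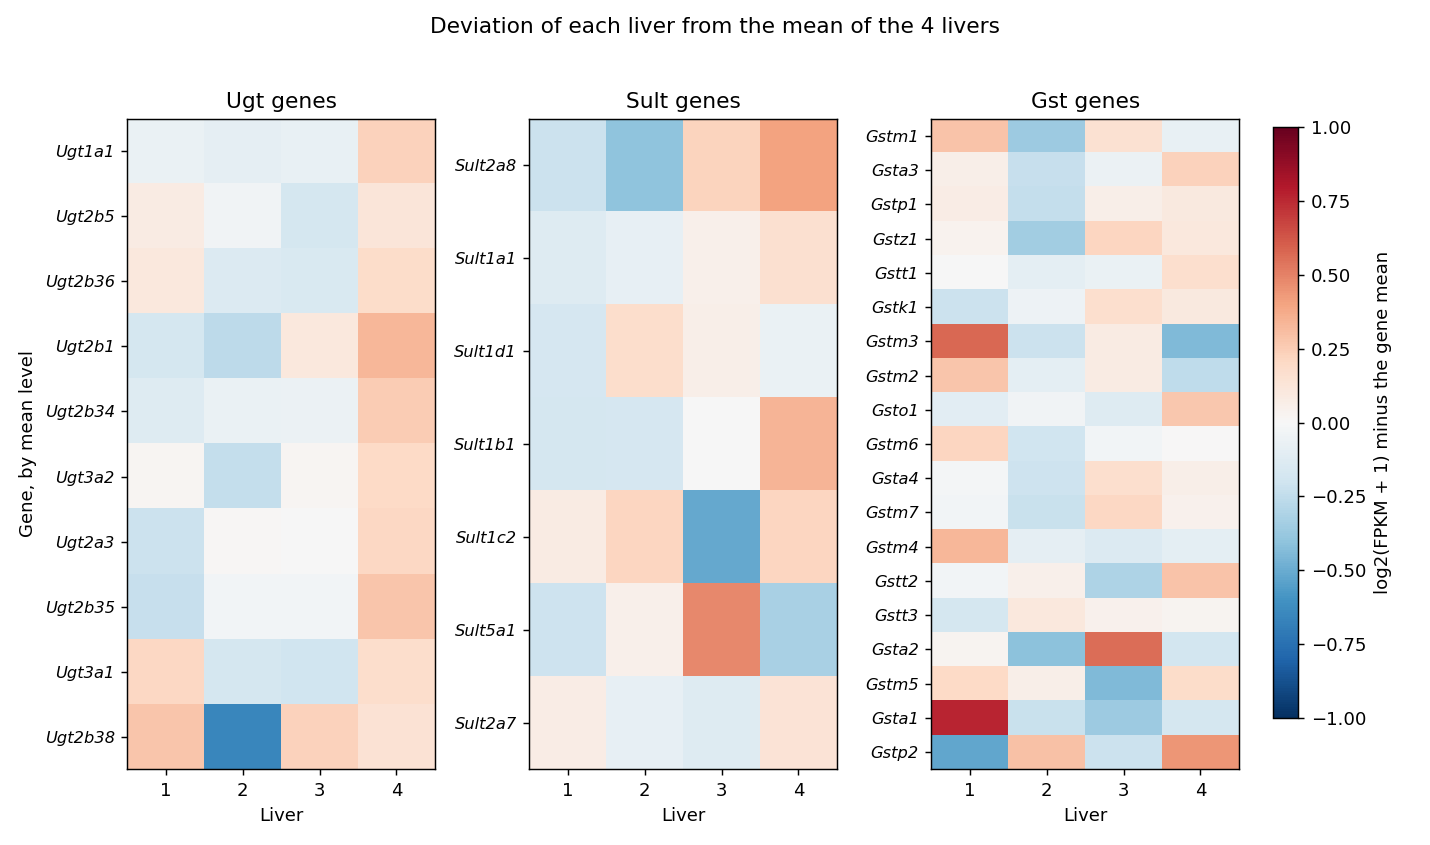
Difference of each liver from the gene's mean over the 4 livers, as log2(FPKM + 1), for the 36 expressed members, where red is above and blue below the mean. Liver 4 is red throughout the Ugt panel, liver 1 is red in most Gstm rows, and liver 2 is blue in most Gst rows.

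All 4 genes listed for the supply of UDP-glucuronic acid were expressed. Ugp2 had 144 ± 12.5 FPKM and Ugdh, which forms the acid, had 62.7, 56.5, 41.9 and 58.9 FPKM in livers 1 to 4. All 7 genes for PAPS supply were expressed. The synthase Papss2 had 74.9, 84.5, 101 and 94.8 FPKM, and Papss1 had 7.17, 6.16, 5.30 and 4.52 FPKM, and their ratio was lowest in liver 1, at 10.4, and highest in liver 4, at 21.0. Of 10 genes of glutathione synthesis and recycling 8 were expressed, Ggt1 and Slc7a11 being the exceptions. Of these 8, 6 were highest in liver 4, as were 33.3% of all expressed genes and 53% of those at 50 FPKM or more. Gclc, the catalytic subunit of the first step, had 87.3, 89.3, 60.7 and 90.0 FPKM and Gclm, its modifier, 57.4, 70.4, 52.7 and 68.6 FPKM, with liver 3 lowest in both. The breakdown enzyme Chac1 had 2.11, 2.47, 3.99 and 6.21 FPKM.

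Transferases outside the naming rule included one more abundant than any member. Microsomal Mgst1 had 5415, 4604, 4605 and 5672 FPKM, with a mean of 5074 ± 552 FPKM (SD, n = 4). Mgst3 had 37.9, 46.9, 25.9 and 48.6 FPKM, and Mgst2 was listed at 0, 0.149, 0.133 and 0 FPKM. Of 6 export pumps 4 were expressed, with Abcc2 at 71.6 ± 6.36, Abcc3 at 64.1 ± 13.1, Abcg2 at 53.8 ± 6.81 and Abcc6 at 34.9 ± 4.54 FPKM (each SD, n = 4). Of the deconjugating enzymes all 7 found in the table were expressed, among them Gusb, beta-glucuronidase, at 22.4 ± 2.74 FPKM (SD, n = 4).

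Regulators of these genes were expressed in 14 of 14 cases, 4 of them with an SD of at least 0.25, as 18.3% of all expressed genes had. The electrophile sensor gene Nfe2l2, which encodes NRF2, had 41.5, 37.6, 35.2 and 35.7 FPKM, and its partner Keap1 had 20.4 ± 2.35 FPKM (SD, n = 4). The xenobiotic receptors Nr1i2 (PXR) and Nr1i3 (CAR) had 31.6 ± 1.35 and 37.1 ± 2.97 FPKM (each SD, n = 4). Hnf4a had 93.9, 104, 156 and 118 FPKM and Cebpa had 142, 181, 293 and 159.98 FPKM, both highest in liver 3. Among 13 NRF2 target genes, 12 were expressed. The highest value fell in liver 1 for 5, liver 2 for 2, liver 3 for 2 and liver 4 for 3 of these, and 6 were lowest in liver 3. Over all expressed genes 17.9% were highest in liver 1 and 31.4% lowest in liver 3. Those highest in liver 1 included Nqo1 at 6.63, 5.08, 4.41 and 4.97 FPKM and Srxn1 at 22.3, 16.05, 16.2 and 17.9 FPKM, while Txnrd1, at 39.5, 43.9, 38.1 and 44.0 FPKM, was highest in liver 4. Of 10 CAR and PXR targets 7 were expressed, led by Cyp3a11 with 1938, 1416, 1961 and 2085 FPKM, while Cyp2b10 had at most 0.828 FPKM. Of 6 genes of the dioxin receptor response 3 were expressed, and Cyp1a1 had at most 0.303 FPKM.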

How the data were processed

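Bulk RNA sequencing of poly(A)-enriched libraries covered 4 livers of 1 group. Per the submitters' processing notes, the authors' tools were FastQC 0.10.1, Trim Galore 0.6.3, cutadapt, STAR 2.7.6a and Cufflinks 2.2.1 with the build mm10, whose roles are not given. The deposited values were taken as FPKM from their form, since no header names a unit. Columns were matched to livers through the sample descriptions, and 0 were left over. Starts were moved by 1 base to count from 1. The values were analysed with Python 3.11.15, numpy 2.4.6 and pandas 2.3.3 as log2(FPKM + 1) or as deposited.

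Depth was estimated from genes with 1 GENCODE vM21 transcript over 800 bases, as the value that 1 fragment takes after subtraction of 200 bases from the length, and is approximate. No read counts are held, so intervals for counting error were not given. The labels number the livers 1 to 4, which were taken as separate animals. The members and lists were chosen with earlier results of these data known, and the lists of genes follow textbook roles. The rule for genes named in full took the 5 highest of each family, expressed members with an SD of at least 0.25 or with 1 liver apart, and up to 4 genes of each list by highest mean or such an SD. Other members and list genes given with their values were chosen after these were seen. Promoters came from RefSeq windows of GRCm38.p6, matched by symbol for 46 of 53 members. Shared words and coding identity came from GENCODE transcripts, 1 per gene. Alternatives were other scalings, minimum levels and pseudocounts, and leaving out each liver. Of the regulators and motifs considered, 1 of each is not reported here. Scripts were tested on simulated data.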

Additional observations from a re-analysis of the deposited data

Results flagged for a closer look

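By Dixon's ratio for 4 samples, 1 liver lay apart in 5 of 36 expressed members, against 5.64% of all expressed genes, and in 3 members below 1 FPKM. Chance alone marks about 1 in 20 groups. Ugt1a1 was 496 FPKM in liver 4 and Ugt2b34 was 175 FPKM in liver 4, both high. Gstm4, at 42.2 FPKM, and Gsta1, at 5.26 FPKM, were high in liver 1. Gstp1 was low in liver 2 at 676 FPKM, and the summed Gstp level was low there with it at 677 FPKM. The values of Sult2a2 (0.695 FPKM in liver 2), Gsto2 (0.0662 FPKM in liver 1) and Ugt2a1 (0.0536 FPKM in liver 2) rest on about 7.24, 1.53 and 2.45 fragments. For Sult2a2 and Gsto2 the other 3 livers are listed at 0, so that the ratio is 1 by construction. Among the accompanying genes, Ahr was high in liver 1 at 5.23 FPKM and Arsa was high there at 25.2 FPKM. Hmox1 was low in liver 3 at 8.50 FPKM, as was Gclc at 60.7 FPKM.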

How the results depend on the processing

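No paired analysis was possible because the labels give 1 group. Of 223 recomputed values for families and counts, 212 stayed within the spread between livers or within 1.5 times the count. For the median deviations the allowed change was the family's median SD, 0.18 for Ugt, 0.24 for Sult and 0.22 for Gst. These deviations were at most 0.20 in size, so that they could hardly count as moved, and the 212 say little about them. Of the median deviations of at least 0.1, 0 changed sign. Smaller ones did, such as that of Ugt in liver 1, at -0.06 to 0.05 when livers were left out. Leaving the 10 most abundant genes out of the total raised the shares to 0.377% for Ugt, 0.102% for Sult and 1.20% for Gst. The count of members with an SD of at least 0.25 was 6 of 30 with a minimum mean of 5 FPKM, where the share of all genes was 16.9%, and 6 with a pseudocount of 5. With equal summed values, an alternative chosen after seeing the data, 2 of 36 members had 1 liver apart, close to the 5.63% of all expressed genes. With a minimum mean of 0.1 FPKM 4 members were highest in liver 2. Leaving out livers in turn gave 9 to 17 members highest in liver 1, 3 to 6 in liver 2 and 8 to 12 in liver 3, with 17, 6 and 12 without liver 4, whose highest members then pass to another liver, and 10 in liver 3 without liver 1. Of 504 recomputed values for single members 499 were counted as the same and 5 as moved. Means were held to the member's SD between livers, and SDs to a fixed change of 0.25. An SD under 0.25 could therefore not count as moved by falling. That of Ugt1a1 fell from 0.15 to 0.014 without liver 4 and was counted as the same. The 5 that moved were SDs, of Gsta1, Ugt2b38 and Sult1c2 without 1 liver and of Gstp2 with pseudocounts of 0.1 (0.84) and 5 (0.15). Members at a few fragments cannot be ranked at this depth.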
